A study of Homo sapiens with 18 samples.

Results

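The comparison described here set K562 cells silenced with TALE proteins against untreated K562 cells, by RNA-seq. It used the 3 TALE and the 3 untreated RNA libraries of the 18 libraries in the series, and all genes with enough counts for a test, which were 13786 of the 55766 entries of the deposited count table. K562 is an established leukaemia line from a patient with chronic myeloid leukaemia. It carries the BCR-ABL1 fusion and expresses many genes of the red cell lineage. Cells of all groups carried a B2M:tdTomato transgene, tdTomato being a red fluorescent protein. The TALE group had received 3 plasmids, each coding for a different repressor (abbreviated ATR in the labels), with 1 µg of the D3A-based one and the others at equal molar amounts. The untreated group had received none that the labels name, so plasmid delivery and silencing of B2M cannot be told apart in this comparison. A dCas9 group of 3 RNA libraries, from cells that the labels call dCas9 silenced, entered the model for its estimate of the spread. Those cells had received 1 µg of the D3A-based plasmid and, in addition, sgRNA plasmid, which codes for guide RNA. The dCas9 group is also set beside the TALE group below. The labels give neither the time between treatment and collection nor whether the cells were 1 clone, a sorted pool or a mixture, nor what drives the transgene.

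TALE proteins are built from repeats that each read 1 base of DNA, so that an attached enzyme or repressor can be brought to a chosen promoter. DNMT3A, helped by its cofactor DNMT3L, writes methyl groups onto cytosines of new sites, and DNMT1 with UHRF1 copies them at replication. KRAB domains recruit TRIM28 and SETDB1, which place the H3K9 methylation of silent chromatin. The product of B2M, beta-2 microglobulin, is the light chain that every classical MHC class I molecule needs to fold and reach the cell surface, where it shows peptides to CD8 T cells.

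The B2M promoter, the region the proteins were directed to, is shown first. The largest fold changes of the comparison were those of B2M and of the entry named for its tagged copy. A stretch of the promoter of GBP4 follows, because GBP5 and GBP4, which lie close together on chromosome 1, both had lower counts in the TALE libraries. The promoter of GBP5, the called gene, was not in the promoter set used and was not examined. GBP4 itself was not called and does not stand for GBP5. Both are RefSeq sequences of GRCh38.p14, 5′ to 3′ on the strand of the gene. Capitals mark matches to GAAANNGAAA on either strand, the letters at the core of the element that interferon-induced factors bind. The B2M stretch covers chr15:44711267-44711516 on the plus strand, the 250 bases before the start site. Its 2 matches overlap by 4 bases. The GBP4 stretch covers chr1:89198937-89198996 on the minus strand and spans the start site. It was cut to end at its match.
B2M: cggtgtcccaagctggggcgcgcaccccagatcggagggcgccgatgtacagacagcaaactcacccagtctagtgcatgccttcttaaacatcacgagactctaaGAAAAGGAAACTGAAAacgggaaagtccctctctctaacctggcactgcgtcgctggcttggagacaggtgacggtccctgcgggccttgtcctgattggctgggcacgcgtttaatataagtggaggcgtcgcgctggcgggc
GBP4: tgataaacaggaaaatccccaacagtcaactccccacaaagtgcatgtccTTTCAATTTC
GAAANNGAAA occurred on either strand in 3.57% of 35116 RefSeq promoter windows of 300 bases, which run from 250 bases before to 50 after the start. The 300-base B2M window held 22 CpG dinucleotides, the units that DNA methyltransferases modify. That was more than in 62.3% of these promoters, whose median was 14. The GBP4 window held 3, more than in 18.2%.

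The 6 libraries held 8460076 to 12050554 counts each. Levels are given as CPM, each library's counts scaled to a common total after TMM normalization. Pearson's r of log2 CPM was 0.983 to 0.991 within the TALE group, 0.990 within the untreated group and 0.982 to 0.991 between them. Untreated library 3 stood apart at low counts: it held counts for 33110 genes, against 21714 to 24963 in the other 5, and 4922 genes had counts in no other RNA library. Leaving out TALE library 3 raised the number of genes at an unadjusted p under 0.05 from 986 to 2027, and that of untreated library 3 lowered it to 445. Red cell genes marked the cells as the labels do: HBG2, a fetal globin gene, was at 2644 to 4800 CPM, and CDKN2A, which is known to be deleted in K562, had 0 or 1 count per library. Markers of T cells, B cells, monocytes, granulocytes, epithelium, fibroblasts and kidney summed to 0.0212% to 0.0243% of counts in TALE and 0.0193% to 0.0231% in untreated libraries. Of these 20 markers 7 had enough counts to be tested, with 0 at an unadjusted p under 0.05, and CD2 was at 0 in all 6 libraries. Other markers of the list were expressed in both groups. Mean CPM in TALE and untreated libraries was 109.86 and 102.25 for EPCAM and 60.5 and 48.7 for KRT19. For CD3D, a T cell marker, the means were 18.9 and 23.3 CPM, and for LYZ 20.5 and 22.6 CPM. In such bulk samples, fewer cells of a kind and less RNA per cell cannot be told apart.

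Counts of the entry B2M fell in the TALE libraries, and so did those of B2M_tomato, the entry named for the tagged copy. B2M (chromosome 15, plus strand, 45003556 to 45011049, GRCh37) had 0.294, 0.539 and 0.370 CPM in TALE libraries 1 to 3, and 6.89, 5.93 and 6.53 CPM in the untreated ones. These values rest on 3, 7 and 4 counts against 79, 48 and 54. All TALE values lay far below all untreated values, with means of 0.401 ± 0.126 and 6.45 ± 0.487 CPM (SD, n = 3 each). The log2 fold change was -3.94 (SE 0.345, 95% interval -4.66 to -3.21, edgeR adjusted p = 9.61e-06), and the remaining mean level was 6.22% of the untreated one.

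Most counts of both entries were listed under B2M_tomato. B2M_tomato had 12.5, 14.6 and 18.2 CPM in TALE libraries against 359, 385 and 393 CPM in untreated ones, means of 15.1 ± 2.84 and 379 ± 18.0 CPM (SD, n = 3 each). The groups were separated by a wide gap, with a log2 fold change of -4.65 (SE 0.159, 95% interval -4.98 to -4.32, edgeR adjusted p = 2.84e-12) and 3.98% of the level left. How the authors divided counts between both entries is not given in the sources used here. Reads of sequence that both share could be listed under either, so the entries are not taken as separate measures of each copy. Their sum was fitted as well. The sum had 12.8, 15.1 and 18.5 CPM against 366, 391 and 400 CPM. It fell by 4.63 on the log2 scale (SE 0.157, edgeR adjusted p = 2.51e-12), and 4.02% of the level was left. The entry named B2M held 2.29%, 3.57% and 2.0% of the summed counts in the TALE libraries and 1.89%, 1.52% and 1.63% in the untreated ones. The exact two-sided permutation p of each of the 3 quantities was 0.1, the smallest that 3 against 3 libraries can give.

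**Figure D1:**
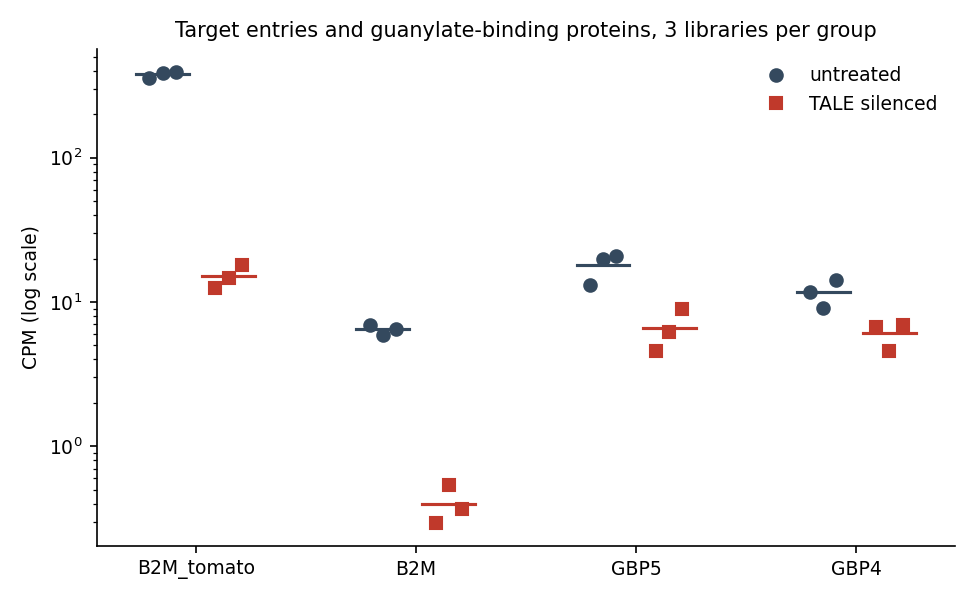
CPM (log axis) of B2M_tomato, B2M, GBP5 and GBP4 in each TALE and untreated library, with the group means. For every one of the 4 genes the TALE points lie below the untreated points, by the most for B2M_tomato (means 15.1 and 379 CPM) and B2M (0.401 and 6.45 CPM).

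The TALE and dCas9 groups did not differ detectably in these genes. No gene passed the adjusted threshold between them with edgeR or DESeq2 (0% of genes tested), while 880 (6.38%) had an unadjusted p under 0.05 with edgeR. The TALE minus dCas9 difference in log2 was 0.62 for B2M (95% interval -0.56 to 1.81) and -0.11 for B2M_tomato (-0.44 to 0.22). The dCas9 libraries had 0.185, 0.311 and 0.297 CPM of B2M, which are so few counts that a difference of 2-fold lies within the interval.

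Methylated-DNA capture (MeDIP-seq) of the same groups gave another readout at B2M. Region 45003405 to 45003721 of chromosome 15 (hg19), which holds the annotated start of B2M, had 7, 10 and 9 counts in the TALE MeDIP libraries. All 3 untreated MeDIP libraries had 0 counts, which allows up to 0.291 CPM over the group, against 2.75 ± 0.632 CPM (SD, n = 3) in TALE. These values are a description with no test.

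Beyond the entries B2M and B2M_tomato, 1 gene passed the adjusted threshold. GBP5 (guanylate binding protein 5, chromosome 1, minus strand, 89721872 to 89738543, GRCh37), an interferon-inducible GTPase of cell-autonomous defence, had 4.61, 6.24 and 8.89 CPM in TALE and 13.1, 19.8 and 20.9 CPM in untreated libraries. The groups did not overlap, and the means were 6.58 ± 2.16 and 17.9 ± 4.23 CPM (SD, n = 3 each). GBP5 fell by 1.43 on the log2 scale (SE 0.221, 95% interval -1.90 to -0.97, edgeR adjusted p = 0.0214), to 36.7% of the untreated level. The exact permutation p was 0.1, again the smallest possible. The call was lost without TALE library 1 (edgeR adjusted p = 0.0625), TALE library 2 (0.257), untreated library 2 (0.195) or untreated library 3 (0.284), and with at least 10 counts required in every library (0.0514), while the log2 fold change stayed between -1.70 and -1.24 over all 17 alternatives. Against dCas9 the difference of GBP5 was -0.08 (95% interval -0.58 to 0.41), with 7.14, 6.73 and 7.04 CPM in the dCas9 libraries. Just inside the gene and next to its start, the MeDIP region 89738211 to 89738507 of chromosome 1 had 0, 3 and 4 counts in TALE and 5, 8 and 7 in untreated libraries. A second region upstream, 89739706 to 89739924, had 4, 11 and 3 against 8, 6 and 5 counts, and neither was tested.

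In all, 3 of 13786 genes were called at an adjusted p under 0.05 (0.0218%), and all 3 were lower in TALE. At an unadjusted p under 0.05 there were 986 genes (7.15%), of which 394 were higher in TALE (2.86%) and 592 lower (4.29%). The 3 TALE and 3 untreated values did not overlap for 1727 genes (12.5%), 839 higher (6.09%) and 888 lower (6.44%). These shares are the background for the counts by p and by overlap below. For counts by sign the background is 6973 genes with a log2 fold change above 0 and 6813 below. The median log2 fold change over all genes was 0.0024, and 73.8% of genes lay within 0.25 of 0.

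The precision of the comparison depended on the level of the gene. For the 6583 genes with a mean of 10 to 100 CPM, the median SE of the log2 fold change was 0.139, and for 99.3% of them the whole 95% interval lay within 2-fold. For the 1913 genes under 2 CPM the median SE was 0.448 and that share was 15.1%, so a change of 2-fold could mostly not be excluded at that level. A fitted change past 2-fold was found for 174 genes, 23 higher and 151 lower, and 10 of the 174 had a mean of at least 5 CPM. Of the 151 lower genes, 80 had their highest untreated value in untreated library 3, the one with counts for the most genes, and 52 in untreated library 2. Without untreated library 3 the split was 92 higher and 134 lower.

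The other guanylate-binding proteins, large GTPases that assemble on pathogen membranes, were few in these cells. Of 7 listed, 3 had enough counts, and all 3 had log2 fold changes below 0 with a median of -0.96. GBP4 (chromosome 1, minus strand, 89646827 to 89664625, GRCh37) had 6.66, 4.55 and 6.95 CPM in TALE and 11.8, 9.14 and 14.2 CPM in untreated libraries. Its groups did not overlap, but it did not pass the adjusted threshold (log2 fold change -0.96, SE 0.216, edgeR adjusted p = 0.294). GBP2 had 2.06, 1.39 and 2.87 CPM against 1.57, 3.95 and 4.36 CPM, with overlapping groups (-0.62, edgeR adjusted p = 0.77). GBP1 and GBP3 were not tested: GBP1 had 1, 2 and 0 counts in TALE and 3, 2 and 5 in untreated libraries, and GBP3 had 3, 7 and 3 against 8, 5 and 7.

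The machinery of MHC class I, apart from its light chain, had no called gene. Of 35 listed genes 28 were tested: B2M was called, 4 including B2M had an unadjusted p under 0.05 with lower values in TALE, 2 had higher values, and the median was -0.06. Among the 5 heavy chain genes, HLA-C, which codes for a classical heavy chain, had 2.74, 4.16 and 5.00 CPM in TALE and 6.02, 6.92 and 6.41 CPM in untreated libraries. These groups did not overlap, with a log2 fold change of -0.69 (SE 0.242, edgeR adjusted p = 0.585). HLA-B was at -0.38 and HLA-E at 0.04.

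Among the 13 genes of peptide supply and loading, 2 of the immunoproteasome had an unadjusted p under 0.05. PSMB8, a catalytic subunit, had 2.94, 1.85 and 2.96 CPM in TALE and 4.45, 4.45 and 3.87 CPM in untreated libraries (-0.73, edgeR adjusted p = 0.585), and PSMB9 was at -0.72 (edgeR adjusted p = 0.607). The peptide transporter gene TAP1 was at -0.35 (unadjusted p = 0.105), and the chaperone gene CANX at 0.09. The 2 genes with higher values, RFXAP (0.42) and NFYA (0.33), code for parts of complexes that bind MHC promoters, and neither passed the adjusted threshold.

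The interferon response list had a median of -0.05. Of 63 listed genes 41 were tested, with 29 below and 12 above 0, 0 higher and 2 lower at an unadjusted p under 0.05. IFNGR1, a chain of the receptor for interferon gamma, had 24.8, 35.1 and 40.7 CPM in TALE and 40.7, 48.8 and 48.5 CPM in untreated libraries (-0.45, SE 0.169, edgeR adjusted p = 0.585). SAMD9L, an interferon-induced antiviral gene, was at -0.75 (unadjusted p = 0.0474). IRF1, an interferon-induced transcription factor that regulates GBP and MHC genes, was at -0.13. The 23 tested genes of nucleic acid sensing had 1 higher and 1 lower and a median of 0.11. They were 8 genes of sensors of DNA or RNA (median 0.17) and 15 of adaptors, kinases or nucleases (median 0.03). SAMHD1, a hydrolase of deoxynucleotides, had 51.4, 38.5 and 35.2 CPM in TALE and 34.6, 29.8 and 31.6 CPM in untreated libraries (0.38, edgeR unadjusted p = 0.0147). IFIH1, the RNA sensor MDA5, was at -0.45 (unadjusted p = 0.0346). No gene of these lists other than GBP5 and B2M passed the adjusted threshold.

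Genes of DNA methylation were examined because the labels name a D3A-based repressor. Counts are per gene symbol. Any plasmid transcripts that match these genes, or those of the KRAB pathway below, cannot be told apart from the cell's own. Counts of DNMT3A were 186, 249 and 159 in TALE and 197, 131 and 134 in untreated libraries, a log2 fold change of 0.07 (95% interval -0.24 to 0.38). DNMT1 was at 0.15 (-0.17 to 0.48), DNMT3B at 0.22 and UHRF1 at 0.30 (unadjusted p = 0.0938). DNMT3L, which is silent in most body cells, had 0, 1 and 0 counts in TALE and 3, 1 and 1 in untreated libraries and was not tested. Of the 20 tested genes of DNA methylation 0 had an unadjusted p under 0.05, and their median was 0.05.

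For the KRAB pathway, 34 genes were tested. Of these 30 were above 0, with a median of 0.09, and 0 were higher and 1 lower at an unadjusted p under 0.05. ZNF10, a zinc finger gene whose KRAB domain is widely used in repressors, was at 0.10 (95% interval -0.40 to 0.60), TRIM28 at 0.05 (-0.25 to 0.36) and SETDB1 at 0.11 (-0.11 to 0.34). The gene with the lower values was ATF7IP2, a relative of the SETDB1 cofactor ATF7IP, with 170, 147 and 231 CPM in TALE and 200, 253 and 261 CPM in untreated libraries (-0.38, unadjusted p = 0.0274).

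Genes near B2M were examined because a repressor at a promoter could reach its neighbours. Within 1 Mb on either side, 13 other genes were tested, with a median log2 fold change of 0.09, a range of -0.45 to 0.26, and 1 with an unadjusted p under 0.05. That was MFAP1, a splicing factor gene, at 0.26 (unadjusted p = 0.0424). The nearest tested gene, TRIM69, a ubiquitin ligase gene, had 5.19, 5.93 and 9.63 CPM in TALE and 6.02, 7.04 and 6.53 CPM in untreated libraries (0.09, 95% interval -0.41 to 0.58). On the other side SPG11, the gene of spatacsin, a lysosomal protein, was at -0.04 (-0.27 to 0.20). EIF3J, a translation factor gene beyond SPG11, had 216, 167 and 172 CPM in TALE and 176, 149 and 147 CPM in untreated libraries (0.23, unadjusted p = 0.108). Within 5 Mb, 80 genes had a median of 0.02, with 2 higher and 1 lower, which is 3.75% of them against a background of 7.15%. No neighbour was called, the smallest adjusted p (edgeR) within 5 Mb being 0.649. Medians of the nuclear chromosomes lay between -0.02 (chromosome 19) and 0.05 (chromosome 20).

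Among lists with more than 3 tested genes, the median furthest from 0 was that of the mitochondrial genome, which codes for 13 respiratory chain proteins and for the rRNAs and tRNAs that translate them. Of its 32 tested genes 0 were called (smallest edgeR adjusted p = 0.234), while 27 had an unadjusted p under 0.05 with lower values in TALE and 0 with higher values. DESeq2 called MT-TL1 (adjusted p = 0.0368), and edgeR with no filter on low counts called 19 mitochondrial genes, all lower. The 27 genes at an unadjusted p under 0.05 in the main fit were 84.4% of the 32, against the background of 4.29%. The median of the list was -0.88. All 13 protein-coding genes were among the 27, as were both rRNA genes and 12 of the 17 tRNA genes. MT-CO1, a catalytic subunit of cytochrome c oxidase, had 9613, 7264 and 10744 CPM in TALE and 12985, 17212 and 17439 CPM in untreated libraries (-0.79, SE 0.255, edgeR adjusted p = 0.545). MT-TL1, a leucine tRNA gene, had 12.8, 8.63 and 11.4 CPM against 15.4, 21.4 and 24.7 CPM (-0.90, edgeR adjusted p = 0.234), and MT-TW and MT-TA were at -1.51 and -1.59. For these 4 genes the groups did not overlap.

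The mitochondrial share of all counts also varied widely within groups. It was 6.00%, 4.04% and 6.32% in TALE libraries and 7.15%, 10.3% and 10.2% in untreated ones, and in the dCas9 libraries it was 6.15%, 14.0% and 10.8%. Means were 5.45% ± 1.23 in TALE and 9.21% ± 1.79 in untreated libraries (SD, n = 3 each). The number of the 32 genes with an unadjusted p under 0.05 and lower values was 14 without TALE library 2, 19 without untreated library 2, 19 without untreated library 3, and 24 to 27 without any other library of the 2 groups. Against the dCas9 group, which shares the TALE libraries with this contrast, 30 of the 32 were lower at that p (background 3.79%), with a median of -1.13 and 0 called. The tRNAs and mRNAs of 1 genome are cut from common transcripts, so these genes are not separate observations.

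Other RNA classes also differed in their share between libraries. Abundant structural noncoding RNAs (the 7SL, 7SK and RNase RNAs and the like) took 3.89%, 4.70% and 5.97% of counts in TALE, 4.92%, 7.17% and 7.25% in untreated and 7.33%, 3.94% and 6.08% in dCas9 libraries. Their 25 tested genes had a median of -0.29, with 0 higher and 2 lower. RN7SL1, the RNA of the signal recognition particle, was at -0.50 with a 95% interval of -1.24 to 0.24, and its copy RN7SL3, with which it may share reads, was at -0.80 (edgeR adjusted p = 0.44). NEAT1, the scaffold RNA of paraspeckles, was at -0.63 (unadjusted p = 0.0109). Of 52 tested small nucleolar and Cajal body RNA genes, which guide the modification of other RNAs, 1 was higher and 4 lower, with a median of -0.10. SNORD17 had 12.5, 18.2 and 25.9 CPM in TALE and 26.3, 33.5 and 33.9 CPM in untreated libraries (-0.72, edgeR adjusted p = 0.4). Without TALE library 3 it was called at -1.0 (edgeR adjusted p = 0.033). By annotated class, 238 long noncoding RNA genes had a median of -0.18, with 4 higher and 33 lower, and 10192 protein-coding genes had a median of 0.01, with 302 higher and 345 lower. The part of library composition in these differences was not tested. The 3 called genes remained called with the mitochondrial and structural genes removed before scaling.

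**Figure D2:**
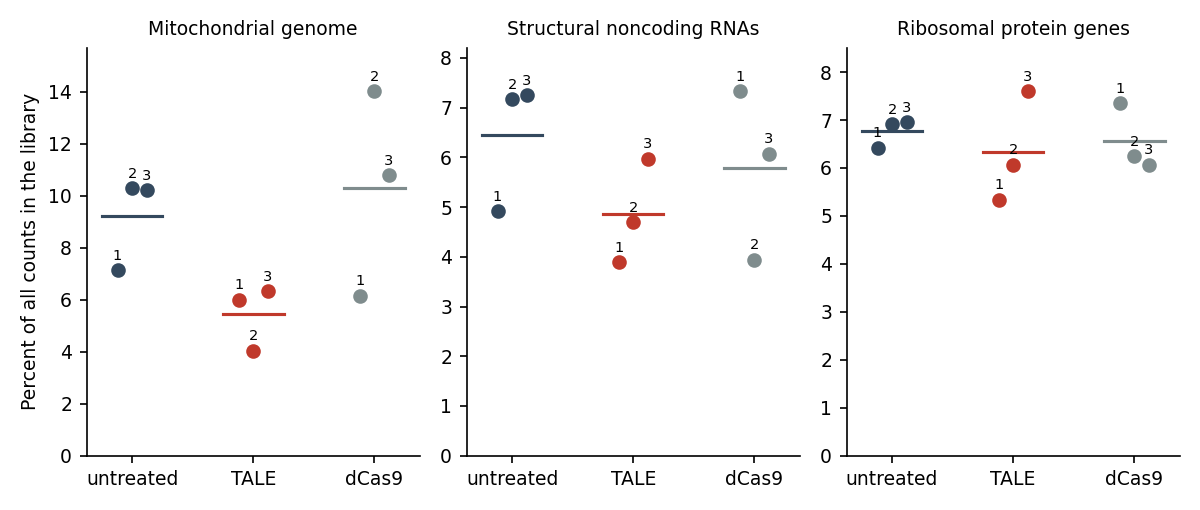
Percent of all counts from the mitochondrial genome, structural noncoding RNAs and ribosomal protein genes in each of the 9 RNA libraries, by group, with replicate numbers beside the points. The mitochondrial share was 4.04% to 6.32% in TALE and 7.15% to 10.3% in untreated libraries, and the dCas9 libraries spread from 6.15% to 14.0%.

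Nuclear genes for the same organelle and for translation had medians between -0.14 and 0. Of the 79 tested nuclear genes of the respiratory chain 51 were below 0, with a median of -0.07 and 1 higher and 3 lower at an unadjusted p under 0.05, COX7B being at -0.59 (unadjusted p = 0.0157). The 73 mitochondrial ribosomal protein genes had a median of -0.00 with 1 higher and 0 lower. Of the 76 cytosolic ribosomal protein genes 61 were below 0, with a median of -0.14 and 0 higher and 2 lower. RPS15A had 280, 315 and 513 CPM in TALE against 424, 603 and 603 CPM in untreated libraries (-0.56, unadjusted p = 0.0117), and without TALE library 3 it was called at -0.87 (edgeR adjusted p = 0.0469).

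The red cell programme of K562 showed no called gene. Of 10 tested globin genes 1 had an unadjusted p under 0.05: HBZ, the embryonic zeta globin, had 548, 595 and 730 CPM in TALE and 503, 456 and 453 CPM in untreated libraries (0.41, SE 0.173, edgeR adjusted p = 0.649). HBG2, a fetal gamma globin and the most abundant, had 2644, 3024 and 4800 CPM against 3808, 4238 and 3777 CPM (-0.18). Among 21 erythroid transcription factor genes LMO2 was at 0.36 (unadjusted p = 0.029), and GATA1, the master regulator, had 102, 106 and 103 CPM against 103, 102 and 109 CPM (-0.02, 95% interval -0.26 to 0.23). Of 31 heme and iron genes 1 was higher and 0 lower. Of 24 red cell membrane genes 1 was higher (ERMAP, 0.29) and 1 lower (CD47, the "do not eat me" signal to macrophages, -0.32). Among 8 tested megakaryocyte genes 2 were lower, among them F2R, the thrombin receptor, with 37.0, 39.9 and 41.5 CPM against 50.8, 48.8 and 51.8 CPM (-0.35, unadjusted p = 0.0102). Higher and lower in this paragraph count genes at an unadjusted p under 0.05, and no adjusted p of these genes was under 0.05.

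Signalling, division and death genes gave counts close to the background. BCR-ABL signalling had 27 genes tested with 0 at an unadjusted p under 0.05. The 55 cell cycle genes had 2 higher, CDK2 (0.26) and MCM7 (0.28), which start and license DNA replication, and 0 lower. Of 33 apoptosis genes 1 was higher, BID (0.25), and 1 lower. Of 31 p53 and DNA damage genes 2 were lower. TP53INP1, a p53 target, had 3.23, 5.93 and 6.11 CPM in TALE and 7.77, 9.51 and 8.59 CPM in untreated libraries (-0.74, unadjusted p = 0.00576). The 28 Polycomb genes had 0 in either direction, with EZH2, the H3K27 methyltransferase, at 0.27 (unadjusted p = 0.0568). Genes of the MYC network (11 tested) and ligands for natural killer cells (15 tested) also had 0.

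Heat shock genes lay mostly above 0. Of 24 tested, 4 had an unadjusted p under 0.05 with higher values (against a background of 2.86% of all genes), 20 had a log2 fold change above 0, and the median was 0.15. HSPA1A, an inducible HSP70 gene, had 146, 116 and 100 CPM in TALE and 99.7, 89.8 and 87.7 CPM in untreated libraries (0.38, unadjusted p = 0.0173). Its near-identical copy HSPA1B, with which reads may be shared, had 42.9, 38.2 and 36.1 CPM against 33.5, 28.2 and 28.7 CPM (0.37, unadjusted p = 0.0115), and HSPH1, a partner of HSP70, was at 0.37. TALE library 1 was the highest for both HSP70 genes, and the count of 4 was 0 without TALE library 1, 0 without untreated library 2, 1 without untreated library 3, and 6 without TALE library 3 or untreated library 1. The 33 genes of the unfolded protein response had 0 higher and 1 lower.

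Genes of cholesterol and lipid synthesis lay mostly below 0. Of 34 tested, 3 had an unadjusted p under 0.05 with lower values, 0 with higher values, and 29 were below 0, with a median of -0.17. LSS, the cyclase that makes lanosterol, had 46.5, 48.6 and 41.1 CPM in TALE and 50.2, 63.9 and 57.5 CPM in untreated libraries (-0.33, unadjusted p = 0.0129). MVD, of the mevalonate pathway, was at -0.33 (unadjusted p = 0.0239). STARD4, a sterol carrier, had 41.9, 68.4 and 87.5 CPM against 82.3, 90.6 and 86.8 CPM (-0.39, unadjusted p = 0.0429), and its groups overlapped. FADS1, a fatty acid desaturase, had 761, 1156 and 1172 CPM against 1281, 1249 and 1306 CPM (-0.31, unadjusted p = 0.0766). TALE library 1 was the lowest for STARD4 and FADS1, and without it the list's median was -0.07 and its count was 1. The count was 0 without untreated library 2, 1 without untreated library 3 and 11 without TALE library 3.

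Glycolysis and hypoxia genes had 5 lower and 1 higher of 35 tested at an unadjusted p under 0.05, with 26 below 0 and a median of -0.14. VEGFA, the vascular growth factor induced by low oxygen, had 115, 154 and 163 CPM in TALE and 162, 195 and 189 CPM in untreated libraries (-0.33, unadjusted p = 0.0227), and PFKFB4, a regulator of glycolysis, was at -0.47. PFKM, the muscle form of phosphofructokinase, went the other way, with 12.2, 12.3 and 9.35 CPM against 7.68, 7.17 and 7.50 CPM (0.59, SE 0.181, edgeR adjusted p = 0.538). The count of 5 was 0 without TALE library 1, with a median of -0.01, 1 without untreated library 2 or 3, and 11 without TALE library 3.

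Gene groups that depend on DNA methylation or KRAB zinc fingers in many cell types were also counted. Of 18 tested zinc finger genes of 19p12, 2 were higher, among them ZNF626 (0.65, unadjusted p = 0.0132). Of 20 imprinted genes 1 was higher, NAP1L5 (0.42), and 2 lower, among them DLK1 (-0.41). Of 21 germline genes, which promoter methylation keeps silent in body cells, 2 were higher, among them CTAG2 (0.85, unadjusted p = 0.0187), and 1 lower, PAGE5 (-0.50, unadjusted p = 0.00913). None of these passed the adjusted threshold. The 56 histone genes had 1 higher and 3 lower, and 21 immediate early genes 0 higher and 1 lower.

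**Figure D3:**
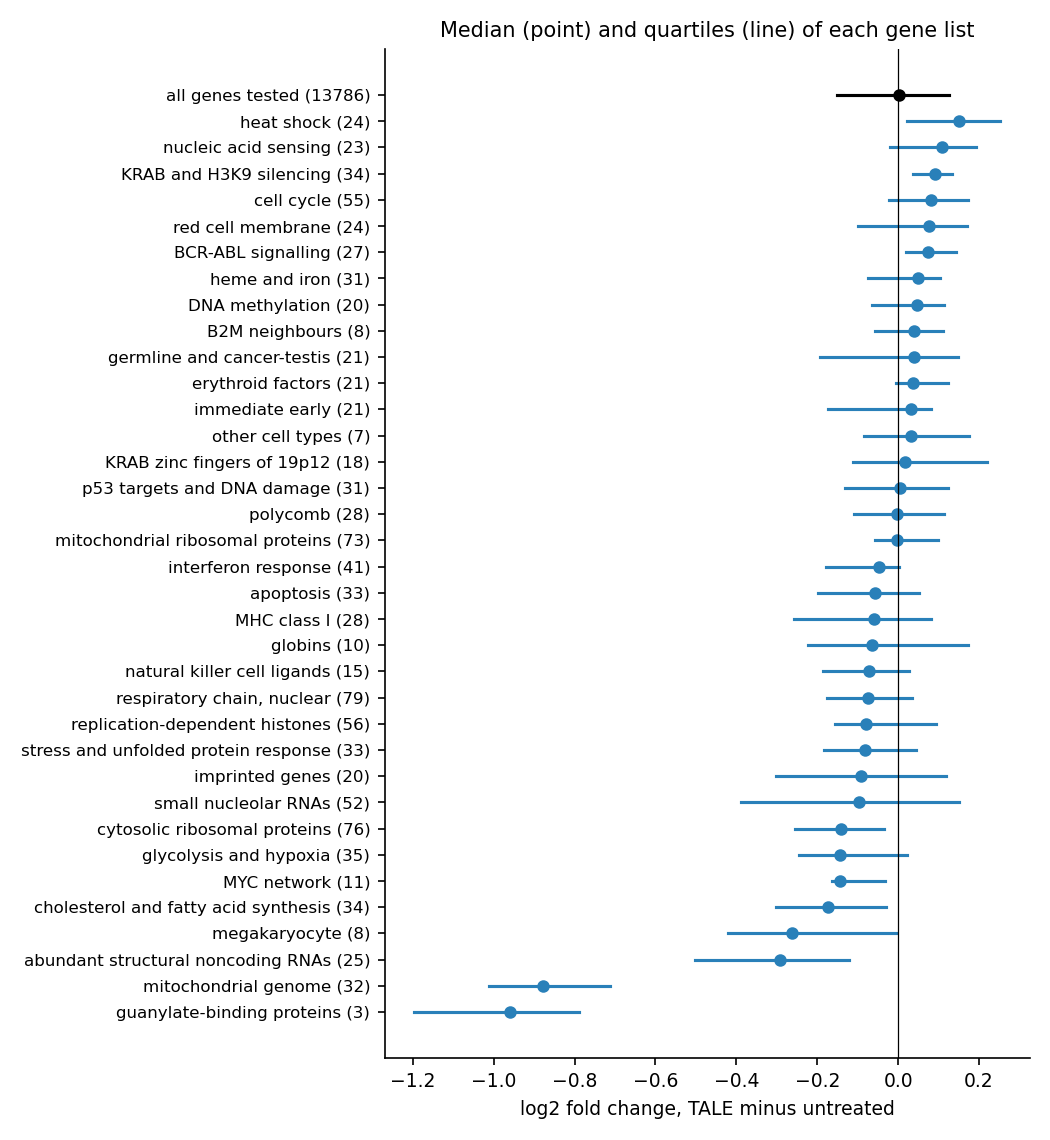
Median log2 fold change (TALE over untreated, point) with the first and the last quartile (bar) of the tested members of each gene list other than the K562 markers, with the number tested in parentheses and all genes on top. Most medians lie within 0.2 of 0, while that of the mitochondrial genome is -0.88 and that of the 3 guanylate-binding proteins -0.96.

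The genes with the smallest unadjusted p were named by rule: those with a mean of at least 5 CPM and no overlap between groups, 10 in each direction. Of the 10 higher ones 0 passed the adjusted threshold in the main fit. With no filter on low counts edgeR called CA1, ZNF724P, CTDSPL, RBM47, MYO6 and RRS1. No other alternative called any of the 10. CA1, carbonic anhydrase 1 of red cells (chromosome 8, minus strand, 86239837 to 86291243, GRCh37), had 35.2, 33.1 and 43.7 CPM in TALE and 23.4, 23.2 and 25.2 CPM in untreated libraries (0.64, SE 0.134, 95% interval 0.36 to 0.92, edgeR adjusted p = 0.234). RBM47, an RNA-binding protein gene, had 9.51, 9.02 and 8.06 CPM against 4.63, 5.56 and 4.96 CPM (0.82, edgeR adjusted p = 0.333). CTDSPL, a phosphatase gene, had 27.1, 24.8 and 21.9 CPM against 17.4, 14.2 and 17.1 CPM (0.60). That every TALE value lay above every untreated value in these 3 genes follows from the rule that named them. The others were ZNF724P (0.92), PARD3, a cell polarity gene (0.74), MYO6, an unconventional myosin (0.65), RP4-775C13.1 (0.61), DHRS2, a mitochondrial dehydrogenase (0.59), RRS1, a ribosome assembly factor (0.56) and the HSP90 pseudogene HSP90AB3P (0.46), whose reads may be shared with its parent gene.

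Of the 10 lower ones, B2M_tomato and GBP5 passed the adjusted threshold, and GBP4 and MT-TL1 are given above. FHL2, a LIM domain protein that binds transcription factors, had 12.1, 13.6 and 11.9 CPM in TALE and 19.9, 20.5 and 23.1 CPM in untreated libraries (-0.75, SE 0.145, edgeR adjusted p = 0.184). AQPEP, an aminopeptidase gene, had 3.92, 4.16 and 5.28 CPM against 8.64, 9.51 and 11.4 CPM (-1.14, edgeR adjusted p = 0.205). C8orf22 had 4.90, 5.01 and 7.50 CPM against 9.43, 14.1 and 11.6 CPM (-1.0, edgeR adjusted p = 0.234). The lack of overlap between the groups in these 3 genes likewise follows from the rule. TC2N was at -0.75, SLCO4C1, an organic anion transporter, at -0.66 and VWDE at -0.49, with edgeR adjusted p of 0.234, 0.289 and 0.294. DESeq2 called FHL2, AQPEP, C8orf22, VWDE and MT-TL1 of these genes. With no filter on low counts edgeR called FHL2, AQPEP, C8orf22, TC2N, SLCO4C1, GBP4 and MT-TL1, but not VWDE. Without TALE library 3, edgeR called C8orf22 (-1.23, adjusted p = 0.0352) and SLCO4C1 (-0.83, adjusted p = 0.0267).

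The dCas9 libraries are set beside these values as a description, since both silenced groups were compared with the same untreated libraries. FHL2 had 13.0, 16.2 and 12.9 CPM there, AQPEP 3.06, 4.97 and 5.25 CPM and C8orf22 6.49, 6.00 and 5.75 CPM. For CA1 they had 39.9, 34.1 and 33.0 CPM, and for RBM47 7.51, 9.52 and 10.4 CPM. In these 5 genes the dCas9 values lay on the TALE side of all 3 untreated values. The rule that named the genes used the same untreated values, so this is not a separate observation. For MT-TL1, RP4-775C13.1, HSP90AB3P and RRS1 the dCas9 and untreated values overlapped. The dCas9 values were 16.2, 22.4 and 20.5 CPM for MT-TL1, within the untreated range of 15.4 to 24.7 CPM. For RP4-775C13.1 they were 8.99, 11.6 and 10.8 CPM, against 9.32 to 10.8 CPM in untreated libraries.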

How the data were processed

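RNA-seq and MeDIP-seq tables of 3 TALE, 3 dCas9 and 3 untreated samples each were available. The labels' protocols name an amplification kit for RNA from fixed tissue, used on total RNA, and shearing of the cDNA. The RNA values are raw counts per gene symbol, as deposited by the authors. The submitters' processing notes name STAR 2.3.0 and the build hg19. Which counter, annotation and strand setting were used is not given in the sources used here, so antisense and near-identical genes cannot be told apart. Groups and replicate numbers came from sample titles. No label says whether replicates were separate cultures, so p-values measure the spread between these samples, which may be technical.

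Genes were kept by edgeR's filterByExpr (minimum count 10), scaled by TMM and tested with edgeR 4.0.16 (quasi-likelihood, R 4.3.3) in 1 fit of the 9 RNA libraries, with Benjamini-Hochberg adjustment over all 13786 genes and a threshold of 0.05. Fold changes are log2, TALE over untreated. Intervals are 95%. Permutation tests were exact and two-sided on log2(CPM + 0.5). The scripts were tested on simulated data. Alternatives were RLE and upper-quartile scaling, DESeq2 1.42.0, other filters, the 6 libraries alone, a replicate block, removal of mitochondrial and structural genes, a pseudocount ratio and leaving out each library.

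The comparison and its 36 gene lists were chosen with earlier results of these data known. Lists are described by counts and medians, without a test. Named genes are B2M, B2M_tomato, all called genes, the 10 higher and 10 lower genes with the smallest unadjusted p among those with a mean of at least 5 CPM and no overlap, and in each list the 3 with the smallest p and the most abundant; genes that the text adds (such as GBP2, TAP1, the DNA methyltransferases, MFAP1 and EIF3J) are given for their role, chosen after their values were seen. MeDIP counts per region were deposited by the authors and are used only as a description. Positions are of GENCODE v44 on GRCh37, matched by symbol for 11279 of the 13786 genes.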

Additional observations from a re-analysis of the deposited data

How the results depend on the processing

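The number of genes called was 3 with RLE scaling, with upper-quartile scaling, in the 6 libraries alone and with mitochondrial and structural genes removed. It was 9 with DESeq2 (all lower), 74 with no filter on low counts (11 higher, 63 lower, with CA1, GBP4 and 19 mitochondrial genes among them) and 1 with at least 10 counts in every library, where B2M was not tested. Leaving out 1 library gave 2 to 16, the 16 arising without TALE library 3 (1 higher, 15 lower). B2M, B2M_tomato and their sum kept their direction and their call in every alternative that tested them, with log2 fold changes of -4.23 to -3.77, -4.80 to -4.54 and -4.78 to -4.52. Adding a pseudocount of 0.5 to both group means gave -2.95 for B2M, whose TALE mean is below that pseudocount. For genes that were not called, the sign changed for GATA1 with no filter (0.018), and for 6 genes with a library left out: GATA1 (without untreated library 3; range -0.035 to 0.016), ZNF10 (without TALE library 1; -0.036 to 0.24), DNMT3A (without TALE library 2; -0.0067 to 0.18), HLA-E (without TALE library 3 or untreated library 1; -0.084 to 0.14), TRIM69 (without TALE library 3; -0.22 to 0.25) and SPG11 (without TALE or untreated library 3; -0.099 to 0.054). The cause was not tested. The number of genes at an unadjusted p under 0.05 was 2027 without TALE library 3 and 445 without untreated library 3, against 986. Precision under 2 CPM was too low to exclude a change of 2-fold for most genes.

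With the replicate number as a block, 3 genes were called, the same 3, with an edgeR adjusted p of 0.0222 for GBP5. Deviations of same-numbered TALE and untreated libraries correlated at 0.065, -0.055 and 0.081, so the numbers were not taken to pair the samples.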
